A study of Pan paniscus with 11 samples.

Results

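The complement genes measured here were C1R, C1S, CFB, SERPING1, CD46, CD55, CD59 and CLU, which the array covered with 9 probe sets out of 12558 that are not controls. They were found by gene symbol in the probe annotation, from a list of 9 genes. The remaining gene of the list, C3, matched no probe set by symbol and was not analysed here. CD59 had 2 probe sets and each other gene had 1. All 9 probe sets passed the filter used for testing, which required an intensity above 100, the floor set here (the lowest deposited value was 90 in 2 arrays), in at least 5 of 11 arrays.

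The RNA came from cultured fibroblasts of bonobos (Pan paniscus), 1 culture and 1 array each from 5 female and 5 male animals described as normal. The donors' ages in years were 9, 2, 4, 20 and 20 for female lines 1 to 5. For male lines 1 to 5 they were 4, 2, 12, 17 and 19. All 10 lines were cultured and harvested by the study's standard procedure. A further culture of male line 1, from the animal aged 4 years, was taken at 50% confluence. With 1 culture per animal, the spread between lines holds both biological and technical variation. Differences by sex and slopes over age were tested against that spread. The passage number, the site of the biopsy and the density of the standard cultures are not given in the labels.

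Complement is a cascade of plasma proteases that tags surfaces for removal and can end in a membrane pore. In its classical branch, the recognition protein C1q activates the protease C1r, which then cleaves its partner protease C1s. C1s in turn cleaves the next components, and the serpin encoded by SERPING1, the C1 inhibitor, blocks both proteases. Factor B, from CFB, supplies the protease of the alternative branch. CD46, CD55 and CD59 are held on the cell's own membrane and protect it, and clusterin, from CLU, is a secreted chaperone that also binds the terminal complex. The liver makes most plasma complement, while fibroblasts are known to secrete several early components.

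The cultures carried fibroblast transcripts. Of 15 fibroblast markers, 14 were on the array and all 14 were above the floor in all 11 cultures. Among 6 hepatocyte markers, 0 passed the filter, and ALB, APOA1, SERPINA1 and FGB stood at the floor in all 11 cultures. Summed over the 6 after the floor was set, hepatocyte marker intensity ran from 600 to 639 in female and from 600 to 668 in male lines, at or close to the sum of 6 values at the floor. Of 10 macrophage and blood cell markers on the array, TYROBP and FCER1G were at the floor in every culture, and 2 passed the filter, CSF1R (up to 228) and CD3E (118 to 290 in the 10 standard lines). CD14 is a monocyte and macrophage receptor gene. It was above the floor in female line 4 (279), male line 5 (323), male line 2 (176) and male line 3 (128) alone. CD163 reached 211 in female line 4, and a second CD163 probe set was at the floor in all 11 cultures. The summed intensity of the 10 was 1018 to 1341 in female lines, lowest in line 5 and highest in line 4, and 1164 to 1396 in male lines, highest in line 5. Of 4 keratinocyte markers 2 passed the filter, KRT10 (287 to 703 in the standard lines) and KRT1 (103 to 301). Of 4 melanocyte markers on the array 2 passed, TYR (up to 175 in the standard lines) and MLANA (up to 220). Among 5 endothelial markers 0 passed. Each array had 52.1% to 60.9% of its probe sets above the floor. Male line 4 had the highest ACTB 3' to 5' signal ratio, 2.27, a sign of lower RNA integrity, and the 50% confluence culture had the strongest ribosomal RNA control signal, up to 2611.

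The classical branch proteases are described first. In RNA from whole cultures, fewer cells expressing a gene and less RNA per cell cannot be told apart. C1R read 3557, 1482, 739, 4797 and 702 in female lines 1 to 5, and 1186, 2440, 1001, 1128 and 1492 in male lines 1 to 5. Female lines 4 and 1 were the highest and female lines 5 and 3 the lowest, so the male values lay inside the female range. The highest line was 6.83-fold above the lowest. C1S read 9794, 4233, 2966, 11262 and 2368 in female lines 1 to 5, and 3970, 5969, 4273, 4017 and 4917 in male lines 1 to 5. The same 2 lines, female 4 and female 1, were again at the top and female lines 5 and 3 at the bottom, with a 4.76-fold range.

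SERPING1, whose product inhibits both proteases, had the widest range of the 8 genes. It read 3860, 1984, 1669, 8787 and 621 in female lines 1 to 5, and 1878, 2892, 1836, 1239 and 3929 in male lines 1 to 5. Female line 4 was highest and female line 5 lowest, 14.2-fold apart, and male line 5 came second. CD14 was highest in male line 5 (323) and female line 4 (279), and at the floor in female line 1, where SERPING1 read 3860. TYROBP and FCER1G were at the floor in every culture, as were CSF1R and PTPRC in male line 5 and female line 4. The part of CD14 in the SERPING1 differences was not tested. The SD of SERPING1 over the 10 standard lines was 1.04 log2, the 103rd largest among 5370 genes. Each gene was represented by the probe set with its highest mean. C1R followed with an SD of 0.93 (rank 162) and C1S with 0.70 (rank 533).

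**Figure D1:**
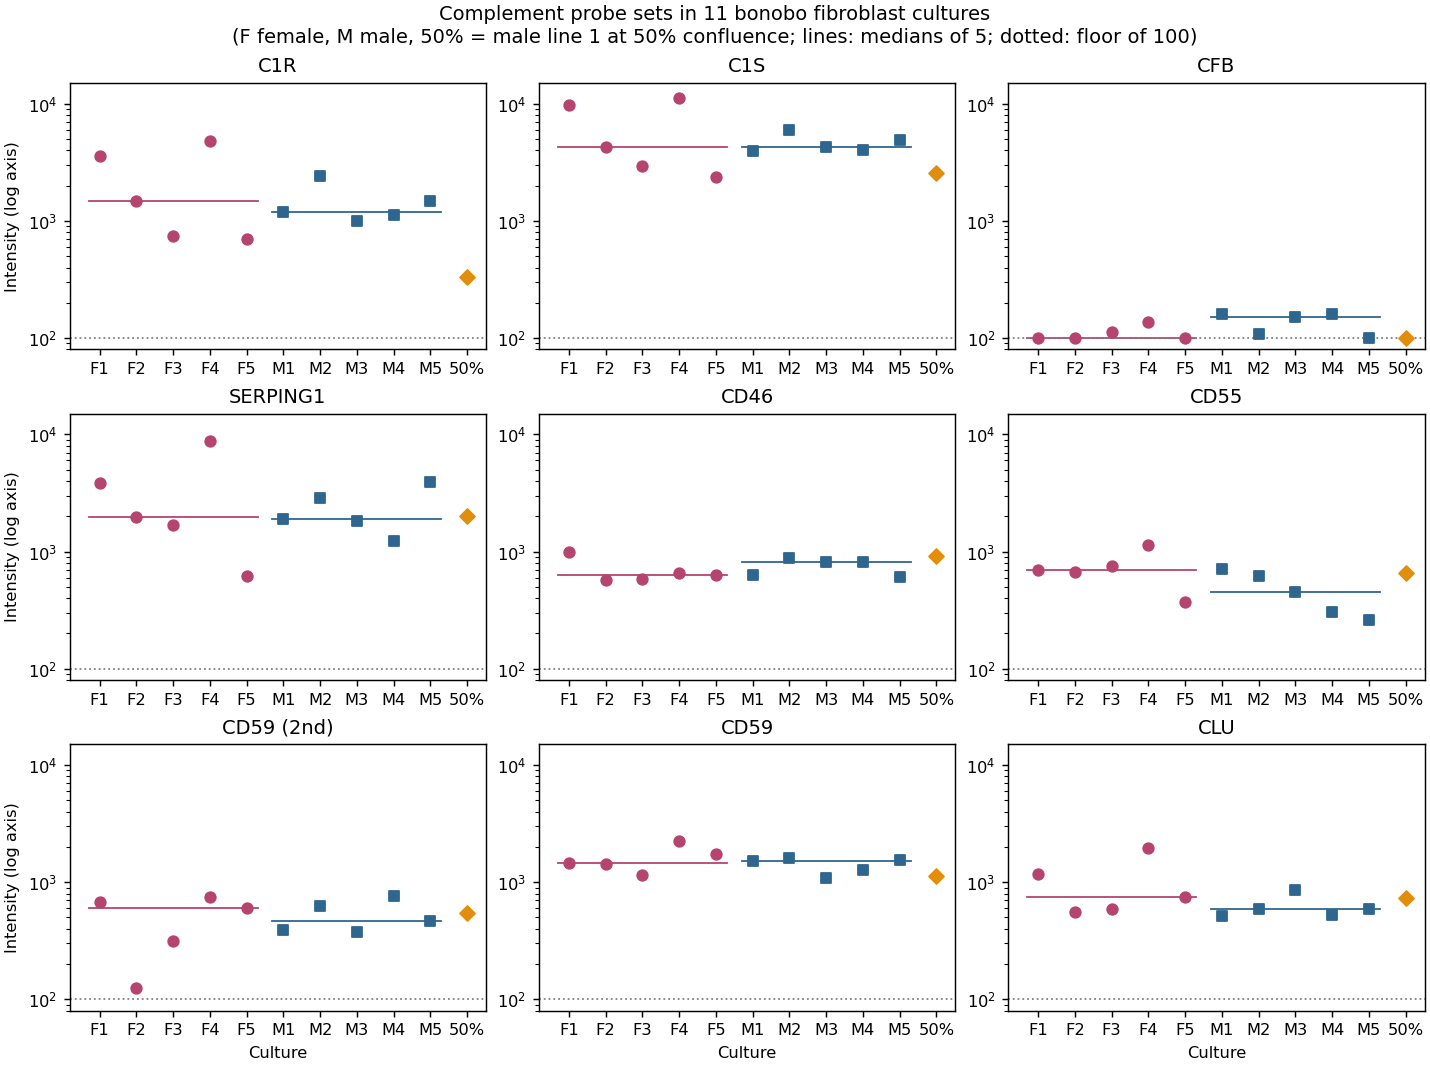
Intensity on a log axis of each complement probe set in every culture, with circles for female lines (F1 to F5), squares for male lines (M1 to M5) and a diamond for male line 1 at 50% confluence. Horizontal lines are medians of 5 lines and the dotted line is the floor of 100. F4 is the highest line for C1R, C1S, SERPING1, CD55, CLU and the brighter CD59 probe set, and F5 is the lowest for C1R, C1S and SERPING1.

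CFB, the alternative branch gene, was close to the floor throughout. It read 100, 100, 112, 138 and 100 in female lines 1 to 5 and 161, 108, 150, 159 and 100 in male lines 1 to 5. It was therefore above the floor in 6 of 10 standard lines, and values at the floor have no order among them.

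The membrane regulators varied less, apart from CD55 and the dimmer probe set of CD59. CD46, a cofactor for cleaving deposited C3b and C4b, read 985, 575, 585, 661 and 632 in female lines 1 to 5 and 628, 887, 818, 815 and 608 in male lines 1 to 5. Its SD of 0.28 log2 ranked 4585 of 5370 genes. CD55, which speeds the decay of the convertases, read 699, 667, 748, 1140 and 374 in female lines 1 to 5 and 708, 614, 449, 303 and 260 in male lines 1 to 5. Male lines 4 and 5, aged 17 and 19 years, were the lowest of the 10, yet the female lines from animals aged 20 years were at the top (line 4) and near the bottom (line 5). The SD of CD55 was 0.66 (rank 659).

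CD59, which blocks assembly of the membrane pore, gave different pictures from its 2 probe sets. The brighter one read 1465, 1431, 1152, 2266 and 1757 in female lines 1 to 5 and 1530, 1618, 1076, 1279 and 1539 in male lines 1 to 5, an SD of 0.31. The second read 684, 124, 312, 752 and 598 in female lines and 389, 621, 379, 768 and 469 in male lines, in the same order of lines, with an SD of 0.80. Female line 2 was far below the others on the second probe set and near the middle on the brighter one. Over the 10 lines both probe sets had r = 0.38, a description only, since they target the same gene on the same arrays.

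CLU read 1168, 557, 589, 1939 and 747 in female lines 1 to 5 and 512, 585, 856, 520 and 596 in male lines 1 to 5. Female lines 4 and 1 were highest, as for C1R and C1S, while the other 8 lines lay between 512 and 856. Its SD was 0.62 (rank 865).

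Female lines 4 and 5 came from animals of the same sex and age, the only such match among the 10. SERPING1 was 14.2-fold, C1R 6.83-fold, C1S 4.76-fold, CD55 3.05-fold and CLU 2.60-fold higher in line 4. Of 6059 tested probe sets above the floor in both lines, 5.1% were over 2-fold higher in line 4 and 4.51% over 2-fold higher in line 5. In the order of differences SERPING1 stood 5th and C1R 12th. These lines were set side by side after their values had been seen, and there is 1 culture of each, so no test was made. CD46 (661 against 632), the brighter CD59 probe set (2266 against 1757) and the second one (752 against 598) were within 1.3-fold of each other. The ACTB 3' to 5' ratio was 1.04 in line 4 and 1.44 in line 5. Macrophage and blood cell markers summed to 1341 in line 4 and 1018 in line 5. CD14 was at 279 in line 4 and at the floor in line 5, and CD163 at 211 and at the floor. The second CD163 probe set, TYROBP, FCER1G, CSF1R, LYZ, CD3D, MS4A1 and each PTPRC probe set were at the floor in both. CD3E read 151 in line 4 and 118 in line 5. Fibroblast markers summed to 106856 in line 4, the lowest of the lines, and 157727 in line 5. The part of these in the difference was not tested.

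Whether the genes were high and low in the same lines was examined for all 28 pairs of the 8 genes over the 10 standard lines, on log2 intensities. C1R and C1S varied together most closely, with Pearson's r = 0.98 (permutation p = 1e-05, the smallest that 100000 resamples can give; adjusted over the pairs, 0.00028) and Spearman's rho = 0.92 (permutation p = 0.00049; adjusted, 0.00686). Without the lines farthest from the median of C1R, female lines 1 and 4, r was 0.93 (exact permutation p = 0.00166 over 8 lines). In the bonobo gene table both genes lie side by side, with 0 other genes between them.

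SERPING1 followed both proteases. With C1S, r was 0.90 (permutation p = 0.00016, adjusted 0.00224) and rho was 0.88 (permutation p = 0.00162, adjusted 0.0151). Leaving out female lines 1 and 4 gave r = 0.85 (exact permutation p = 0.01). Against C1R, r was 0.87 (permutation p = 0.00052, adjusted 0.00485) and rho was 0.93 (permutation p = 0.00034, adjusted 0.00686), and r was 0.74 without those lines (exact permutation p = 0.0402). Female line 4 decided the calls for SERPING1: without it r was 0.84 with C1S (exact permutation, adjusted p = 0.0941) and 0.78 with C1R (exact permutation, adjusted p = 0.121), while C1R and C1S kept r = 0.96 (exact permutation, adjusted p = 0.00216). Without female line 5, 7 pairs passed in place of 3, among them C1S and CLU (r = 0.85, exact permutation, adjusted p = 0.0388).

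The remaining 25 pairs did not pass. CLU had r = 0.72 with C1S (permutation p = 0.0207, adjusted 0.145; rho = 0.53, permutation p = 0.124, adjusted 0.734) and r = 0.68 with C1R (permutation p = 0.0285, adjusted 0.159; rho = 0.30, permutation p = 0.41, adjusted 0.741). Without female lines 1 and 4 these were -0.28 and -0.38 (exact permutation p = 0.519 and 0.345), so they rested on those lines. After sex and age had been fitted, 7 pairs passed in place of 3, of which 4 included CLU. The count of 7 can be too high, since residuals of a fit are not independent of each other. CFB had r of -0.08 with C1R (permutation p = 0.817, adjusted 0.984; rho = -0.16, permutation p = 0.651, adjusted 0.817) and, near the floor, could show little.

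**Figure D2:**
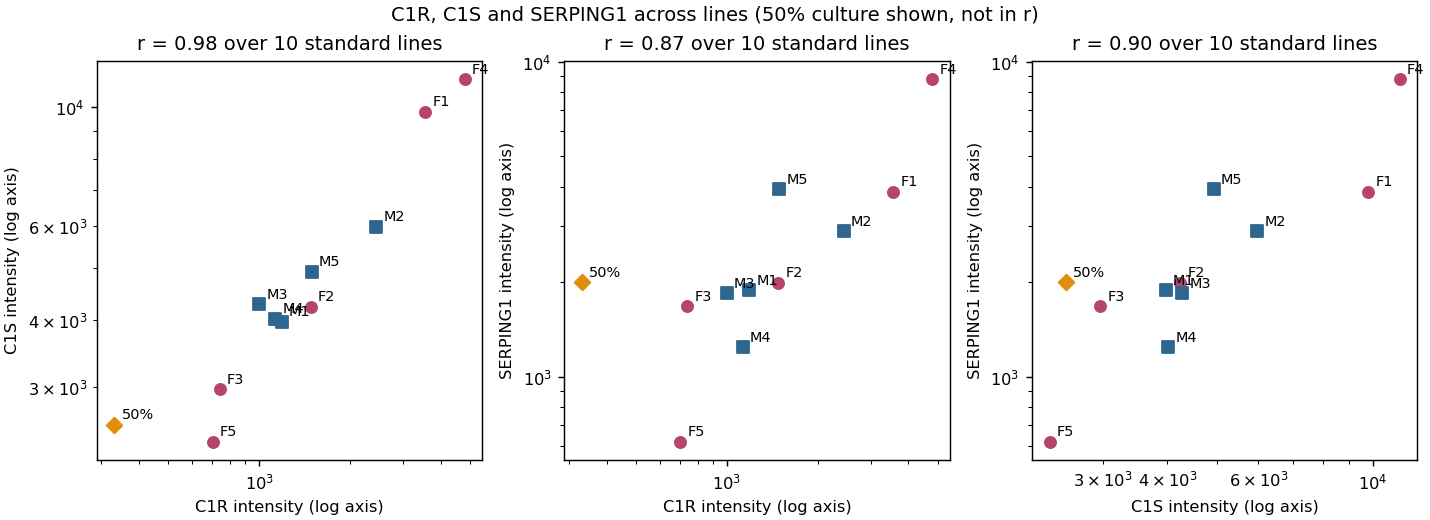
Intensities of C1R, C1S and SERPING1 against each other on log axes, with a point per culture (circles female lines, squares male lines, diamond male line 1 at 50% confluence). The 10 standard lines give r = 0.98, 0.87 and 0.90 from left to right, with F4 at the upper right of each panel. The 50% confluence culture lies to the left of all lines on the C1R axis.

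The genes whose pattern over the 10 lines was most like these were taken from all 5370 by Pearson's r, chosen for that value and so given with no p. For C1R the most alike gene of all was C1S, and SERPING1 ranked 4th of 5369. The others near it were SERPINF1 (r = 0.91), which encodes pigment epithelium-derived factor, a secreted serpin; ICAM1 (0.90), a leukocyte adhesion receptor gene; and HLA-DPA1 (0.86), an MHC class II gene. For C1S, C1R ranked 1st and SERPING1 3rd, with ICAM1 (0.92), the autophagy gene GABARAPL1 (0.90) and SERPINF1 (0.89). For SERPING1, C1S ranked 1st and C1R 2nd, followed by SERPINF1 (0.85), the phospholipid transfer protein gene PLTP (0.84) and LEPROT (0.84). SERPINF1 ran from 1999 in female line 5 to 12718 in female line 4. The highest ICAM1 intensities were 785 (female line 1) and 548 (female line 4), and 5 lines stood at the floor, among them female line 5. HLA-DPA1 did not exceed 238.

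Sex and age were then fitted jointly over the 10 standard lines. With limma, 0 of 9 complement probe sets passed an adjusted p of 0.05 for sex, against 0.0273% of all 7333 tested. At an unadjusted p under 0.05 the count was also 0 of 9, where the share over all probe sets was 2.33%. It was 1 (CD55) without male line 1 or female line 2, and 2 (CD55 and CLU) without female line 5, and 1 in 4 other settings. The largest sex estimates over the 10 lines were those of CD55 and CLU. The mean CD55 intensity was 726 ± 274 (SD, n = 5) over the female lines. Over the male lines it was 467 ± 193 (SD, n = 5). On log2 intensities with age fitted, the male minus female difference was -0.66 ± 0.31 (SE, 95% interval -1.33 to 0.01, limma, adjusted p = 0.9999), and the groups overlapped. For CLU the female mean was 1000 ± 579 (SD, n = 5) against a male mean of 614 ± 141 (SD, n = 5). Its log2 difference in the same fit was -0.55 ± 0.30 (SE, 95% interval -1.20 to 0.09, limma, adjusted p = 0.9999), and the groups again overlapped. Without female line 4 the estimates were -0.33 for CD55 and -0.31 for CLU, smaller than those of SERPING1 (0.46), the second CD59 probe set (0.40) and CFB (0.38) in that fit. Leaving out each line gave -0.82 to -0.33 for CD55 and -0.73 to -0.31 for CLU. The estimates for C1R (-0.28, interval -1.32 to 0.75), C1S (-0.14, -0.95 to 0.67) and SERPING1 (-0.10, -1.26 to 1.06) had wide intervals, and each changed sign without female line 4 (0.16, 0.19 and 0.46). C1S and SERPING1 were also positive without female line 1 (0.10 and 0.08), and SERPING1 without male line 4 (0.13). Of the 9 estimates 3 were positive, with a median of -0.14, and the median over all probe sets was 0.003.

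For age, 0 of 9 probe sets passed with limma, as did 0% of all 7333. At an unadjusted p under 0.05 there was 1 of 9, the second CD59 probe set, beside 3.42% of all probe sets. Its slope was 0.61 ± 0.26 (SE) log2 over 10 years (95% interval 0.05 to 1.17; limma, adjusted p = 0.9987). The brighter CD59 probe set had a slope of 0.15 (interval -0.16 to 0.46), and the second one had an unadjusted p above 0.05 when any of female lines 2, 3, 4 and 5 or male lines 1 and 4 was left out. Its slope was 0.29 without female line 2, 0.52 without female line 4 (interval -0.12 to 1.17) and 0.61 without female line 5 (interval -0.04 to 1.26). CD55 had the lowest slope, -0.38 ± 0.22 (interval -0.85 to 0.08), and CLU had 0.35 ± 0.21 (interval -0.09 to 0.79). Both depended on single lines. CD55 was -0.67 without female line 4 (interval -1.06 to -0.28; limma, adjusted p = 0.9991) and -0.25 without female line 5. CLU was 0.14 without female line 4 and 0.50 without female line 5 (interval 0.03 to 0.97; limma, adjusted p = 0.9997). C1R (0.05), C1S (0.07) and SERPING1 (0.07) had slopes near 0, with female lines 4 and 5, both at 20 years, at opposite ends. Without female line 4 they were -0.33, -0.21 and -0.42. They were also negative without female line 3 (-0.16, -0.06 and -0.01), as was that of SERPING1 without male line 5 (-0.12). The interval for SERPING1 ran from -0.73 to 0.87.

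**Figure D3:**
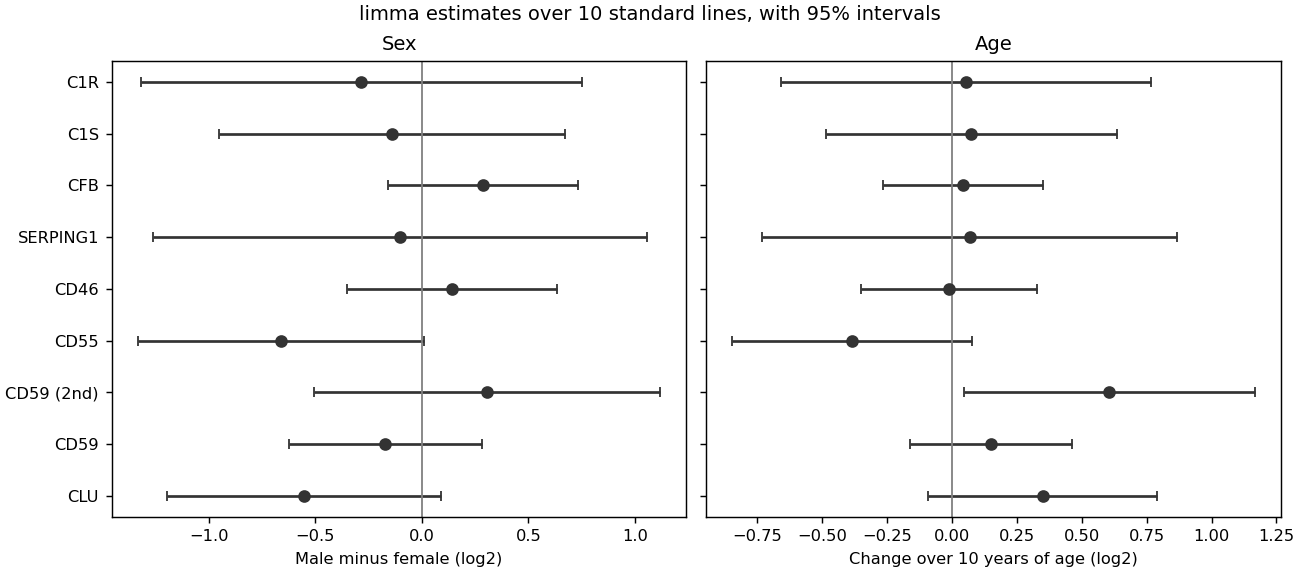
Log2 differences between male and female lines (left) and log2 change over 10 years of age (right) for each complement probe set, from limma over the 10 standard lines, as points with 95% intervals. All intervals cross 0 except that of the second CD59 probe set for age, which runs from 0.05 to 1.17 before adjustment.

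Harvest state was compared in male line 1, standard culture against 50% confluence, with 1 culture each and so no test. The lowest deposited value was 90 at 50% confluence and 100 in the standard culture. A difference in array processing, if there was any, cannot be told apart from harvest state. C1R was 3.58-fold lower at 50% confluence, at 331 against 1186. That value lay below the lowest of the 10 standard lines, 702. C1S was 1.56-fold lower (2549 against 3970), inside the range of the lines and above female line 5 alone. Fibroblast markers also stood lower in that culture, in 10 of 14 genes, with a median of -0.63 log2 beside -0.64 for C1S, and 3 of them differed by over 2-fold (COL6A3, PDGFRB and FBLN1, all lower). Their part in the difference was not tested. SERPING1 was not lower, at 1993 against 1878. Over 2-fold differences were found in 1 of 8 complement probe sets above the floor in both cultures, and in 9.63% of all 6147 such probe sets, 4.75% being lower and 4.88% higher at 50% confluence. C1R had the 31st lowest log2 difference of these 6147, at -1.84.

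The membrane regulators and CLU differed by less than 1.5-fold. CD46 (925 against 628), CLU (739 against 512) and the second CD59 probe set (546 against 389) were higher at 50% confluence. The brighter CD59 probe set (1135 against 1530) and CD55 (651 against 708) were lower, so that the CD59 probe sets went opposite ways. CFB was at the floor at 50% confluence and 161 in the standard culture, at least 1.61-fold lower. ICAM1, which resembled C1R and C1S across lines, went the other way in this comparison, from the floor to 403. Ribosomal RNA control signal was at 100 in the standard culture and 1508 to 2611 at 50% confluence, and its part in these differences was not tested.

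**Figure D4:**
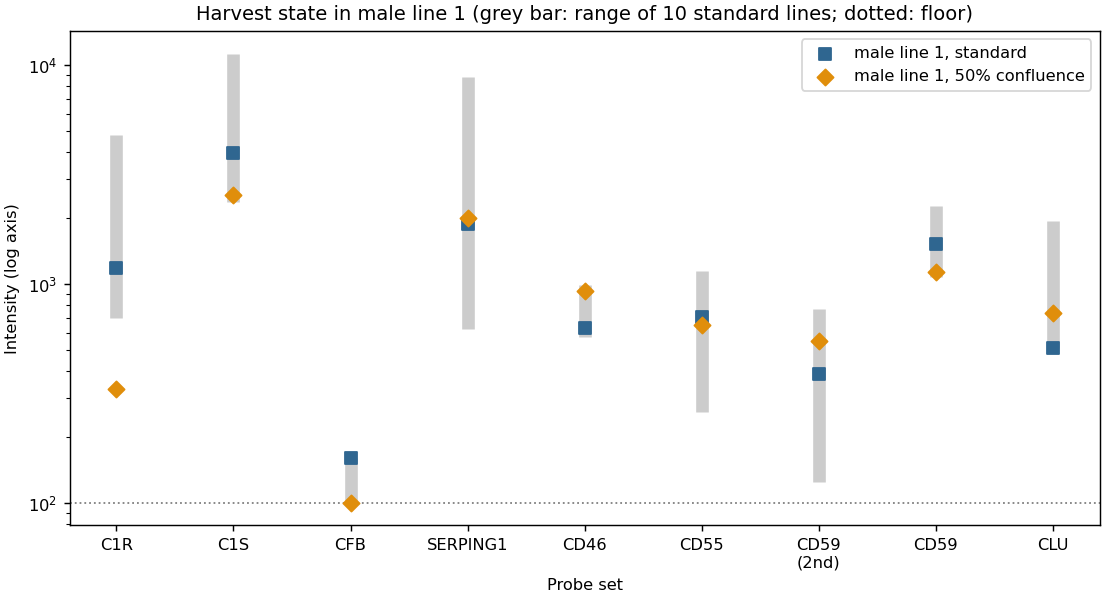
Intensity on a log axis of each complement probe set in male line 1, standard culture (squares) and 50% confluence (diamonds), over grey bars that span the 10 standard lines. C1R at 50% confluence, 331, is the 1 diamond outside its bar. The dotted line is the floor of 100.

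Of 41 other complement genes in a further list, 32 were on the array and 6 passed the filter. CFD, the gene of the factor D protease that cleaves factor B, was above the floor in all 11 cultures. It read 3512, 1071, 221, 735 and 613 in female lines 1 to 5 and 901, 1705, 777, 772 and 1460 in male lines 1 to 5, with an SD of 1.04 log2. Female line 1 and male line 2 were the highest and female line 3 the lowest, while female line 4, highest for C1R and C1S, was among the lower lines. A second CFD probe set was at the floor in all 11 cultures. C1QBP, the gene of a C1q-binding protein found mainly in mitochondria, read 803 to 2163 in the standard lines, with its lowest value in female line 1. C2, a classical branch component that C1s cleaves, was above the floor in 7 of 11 cultures and reached 297. C9 (up to 288), the lectin branch gene FCN3 (up to 183) and the complement receptor subunit gene ITGAX (up to 359) were at the floor in several lines. Another 11 of the 32 were at the floor in all 11 cultures, among them C1QB, C7, CFI, MBL2, C3AR1 and ITGAM. With limma, 0 of the 6 passed for sex or for age, and 0 had an unadjusted p under 0.05.

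Interferon and inflammatory response genes, many of which are induced together with complement genes in other settings, were counted in the same fits. For age, 21 of 25 interferon response genes had positive slopes with a median of 0.16 log2 over 10 years, where 49.8% of all 5370 genes were positive, and 0 passed with limma (4 at an unadjusted p under 0.05). Of the 8 complement genes, 6 were positive with a median of 0.06. For sex, 14 of the 25 interferon genes were positive (median 0.04), with 0 at an unadjusted p under 0.05. Over all 5370 genes 50.6% were positive for sex, with a median of 0.003. With limma, 2.33% of all 7333 probe sets had an unadjusted p under 0.05 for sex and 3.42% for age. Inflammatory cytokine response genes had 13 of 22 positive for age (median 0.16) and 15 of 22 negative for sex (median -0.11). Of these 0 passed, with 2 for age and 3 for sex at an unadjusted p under 0.05. IL6 (-1.39), PTGS2 (1.29) and VCAM1 (1.26) had the largest sex estimates of that list and did not pass.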

How the data were processed

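For each probe set and array the authors deposited 1 intensity, a linear whole number, from an Affymetrix human array (probe annotation of 2016). Probe summary and array scaling are not given in the sources used here. Values of 90 in 2 arrays, male line 5 and the 50% confluence culture, were raised to 100, the floor. Log2 was then taken with no further scaling, since 2% trimmed array means lay within 5% of each other. Of 12558 probe sets, leaving out 67 controls, 7333 above the floor in at least 5 of 11 arrays were tested with limma 3.58.1 (R 4.3.3), by lmFit and then eBayes with a trend on intensity (sex and age jointly; Benjamini-Hochberg over all of them; two-sided). The fit was checked on simulated data, with differences planted in 100 probe sets per size. For sex, 46% of those of 1 log2 and 89% of those of 2 log2 were recovered, with 8 false calls. For age over 10 years these were 76% and 99%, with 13 false calls. A sex difference of 1 log2 can therefore be missed. No gene was named from a probe set with several symbols, and a gene's probe set of highest mean stood for it. Pair correlations used 100000 permutations of the lines, or all orders for under 10 lines. Probes follow human sequences, so bonobo differences can lower a signal. The number of arrays limits precision. All members were named, as were other complement genes passing the filter, the 3 genes most like each of the 3 most variable members, and up to 4 genes per response list. ICAM1's harvest values, and the 6 named of 11 genes at the floor, were added after their values were seen. No rule set beforehand chose which single cell type markers were named, CD14, CD163, COL6A3, PDGFRB and FBLN1 among them. The members and lists were chosen with earlier results of these data known. Gene names were matched to the bonobo assembly NHGRI_mPanPan1-v2.0_pri (7680 of 8226 symbols). Alternatives were other scalings, floors, filters, variance models and age codings, and leaving out each line.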

Additional observations from a re-analysis of the deposited data

Results flagged for a closer look

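In 2 of 27 groups of values examined (9 probe sets in females, in males and in all 10 lines), 1 line stood apart by Dixon's criterion, where chance gives about 1 in 20. CD46 in female line 1 was 985 against 575 to 661 in the other females, and its gap on the log2 scale was 0.741 of the females' range. The second CD59 probe set in female line 2 was 124 against 312 to 768 in the other lines, a gap of 0.506 of the range over the 10 lines, and the brighter CD59 probe set of that line read 1431.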

How the results depend on the processing

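No alternative gave a complement probe set past the threshold for sex (lowest adjusted p 0.998) or age (lowest 0.689). The count over all probe sets for sex was 2 and became 1 with a floor at 200, a pseudocount of 50, no filter or the 50% confluence culture for male line 1, 0 with probe sets above the floor in all arrays, 3 with no intensity trend, array weights or age left out, and 1 to 2 leaving out each line. For age it was 0 and became 1 with no filter. At an unadjusted p under 0.05 the complement count for sex was 0 and became 1 with quantile normalization, median centring, probe sets above the floor in all arrays or the 50% confluence culture. For age it was 1, became 2 with array weights and 0 with a floor at 200, no filter, age in classes, probe sets averaged or the 50% confluence culture. The pairs that passed numbered 3, and 7 on residuals after sex and age, a count that can be too high. They numbered 1 to 7 leaving out each line. Without female lines 4 and 5 together, an alternative chosen after seeing the data, 1 pair passed. Over the other scalings and floors the same 3 pairs passed. Estimates near 0 changed sign. With array weights the sex estimates of C1S and SERPING1 became 0.0086 and 0.12 and the age slope of CD46 became 0.0101. That slope was 0.0029 with quantile normalization and 0.0116 with log2 age. The C1S slope was -0.0071 with age as under 15 against 15 years or more, and the CD59 sex estimate was 0.0671 with its probe sets averaged. Leaving out each line gave sex estimates of -0.68 to 0.16 for C1R, -0.49 to 0.19 for C1S, -0.70 to 0.46 for SERPING1 and -0.0677 to 0.522 for the second CD59 probe set. Age slopes ran from -0.33 to 0.40 for C1R, -0.21 to 0.38 for C1S, -0.42 to 0.59 for SERPING1, -0.037 to 0.146 for CFB and -0.0759 to 0.0517 for CD46. The cause of these changes was not tested. CFB, near the floor, has a bound in most comparisons.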

Other observations

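The 2 response lists had different orders of lines. Of 30 inflammatory cytokine response genes on the array 22 passed the filter, ICAM1 among them. CXCL1 did not, at 960 in female line 4, 176 in female line 3 and the floor elsewhere. The mean log2 deviation of the 22 from their means over the 10 lines was taken. It was 0.37 in female line 4, 0.32 in female line 1 and -0.07 in female line 5. Male line 4 was next after female line 1, at 0.16, and female line 3 was the lowest line, at -0.34. For the 25 interferon response genes that passed the filter it was -0.12, 0.55 and 0.24 in female lines 4, 1 and 5. Fibroblast markers (14 genes) stood at -0.28, -0.15 and 0.12. These are descriptions of single arrays, and no relation to C1R, C1S or SERPING1 was tested.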
